A study of Homo sapiens with 9 samples.

Results

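The comparison of the NC1 with the KO1 libraries sets decitabine beside vehicle in wild-type cells, as their characteristics give them. It covers 6 libraries of MV4-11, a human acute myeloid leukaemia cell line. Its members are the 12263 of 60612 listed genes that reached 1 FPKM, a fragment count scaled by transcript length and library size, in at least 3 of these 6 libraries. The filter left out 48349 genes. Of the members, 11035 were at 1 FPKM or more in every one of the 6 libraries, 285 in all 3 NC1 and no KO1 library, and 80 in all 3 KO1 and no NC1 library. The third highest value was 1.00046 FPKM for the gene just inside the filter and 0.999767 for the gene just outside it.

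KO1 is described as wild type given vehicle and NC1 as wild type given decitabine, each with 3 libraries and each at 72 h. A further stem, NCO, is described as CD36 knockdown given decitabine for 72 h, and its 3 libraries entered the fit and are given as values beside some results. Total RNA was taken with Trizol and made into TruSeq libraries from cultures of a single cell line, and nothing says whether replicates were separate cultures, so p-values measure only the spread between these libraries. The name KO1 reads as a knockout while its description reads as wild type, and directions are stated by name for that reason.

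CD36, the fatty acid receptor that the series targets, was at 0.134, 0.144 and 0.0997 FPKM in the KO1 libraries and at 2.23, 1.78 and 2.52 in the NC1 libraries. All 3 KO1 values lay far below the lowest NC1 value, although both groups are described as wild type. The difference was 1.49 on the log2(FPKM + 1) scale (SE 0.112, n = 3 per group); it was known beforehand and CD36 passed the filter through NC1 alone, so no test is given. In NCO, the group described as the knockdown, CD36 was at 2.49 ± 0.341 FPKM (SD, n = 3). CD36 therefore does not follow the descriptions: the one given to KO1 and the one given to NCO may have been swapped, in which case KO1 would hold the knockdown and NC1 minus KO1 would not be drug against vehicle. A drug effect and a difference in CD36 cannot be told apart in what follows.

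FPKM holds no counts, so sequencing depth is unknown. FPKM sums ran from 505428 to 530097 over the 6 libraries. Across the members, libraries of the same group correlated at 0.991 to 0.995 and libraries of different groups at 0.969 to 0.971. Mitochondrial genes took 14.5% to 15.3% of the sum in KO1. They took 17.6% and 17.3% in NC1 replicates 1 and 2 but 14.5% in NC1 replicate 3.

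Decitabine is a cytosine analogue that is built into DNA and traps the methyltransferases that copy DNA methylation, so that methylation is lost as cells divide. It is known to let silenced endogenous retroviruses be transcribed, and double-stranded RNA from such elements can be read by the cytoplasmic sensors of viral RNA. Those sensors switch on interferon genes, and interferons act through JAK kinases and STAT factors on genes with an interferon-stimulated response element in their promoters. In myeloid leukaemia the drug is also known for its toxicity to dividing cells and for partial maturation of the blasts.

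Promoters of some of the genes with the largest positive differences are shown first. They were picked among those that hold the motif marked below, so its presence in them is no result. The sequences are those of RefSeq on GRCh38.p14, from 250 bases before to 50 bases after the annotated start. The capitals mark GAAANNGAA, the core of the interferon-stimulated response element, searched on both strands and including overlapping matches. IFI27 lies at chr14:94110486-94110785 on the plus strand, with matches that begin at -107 and -95 from the start. HERC5 lies at chr4:88456869-88457168 on the plus strand, with matches at -124, -118 and -73. IFITM3 lies at chr11:320811-321110 on the minus strand, with matches at -52 and -35. IFIT3 lies at chr10:89327747-89328046 on the plus strand, with matches at -155 and -121. ISG15 lies at chr1:1013247-1013546 on the plus strand, with overlapping matches at -113, -107 and -101. SNHG1, a strongly lower gene shown for contrast, lies at chr11:62855836-62856135 on the minus strand and holds no match in this window.
IFI27: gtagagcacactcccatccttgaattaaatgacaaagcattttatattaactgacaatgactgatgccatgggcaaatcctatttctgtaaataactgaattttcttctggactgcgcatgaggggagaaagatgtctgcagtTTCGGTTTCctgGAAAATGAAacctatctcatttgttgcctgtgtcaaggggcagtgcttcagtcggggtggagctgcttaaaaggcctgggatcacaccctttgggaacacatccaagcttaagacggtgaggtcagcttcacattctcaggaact
HERC5: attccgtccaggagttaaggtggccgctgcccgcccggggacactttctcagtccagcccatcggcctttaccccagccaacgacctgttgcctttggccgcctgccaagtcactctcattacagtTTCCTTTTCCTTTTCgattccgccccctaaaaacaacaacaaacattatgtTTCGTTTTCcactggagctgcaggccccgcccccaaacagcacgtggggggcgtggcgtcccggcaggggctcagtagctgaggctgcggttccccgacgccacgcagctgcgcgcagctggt
IFITM3: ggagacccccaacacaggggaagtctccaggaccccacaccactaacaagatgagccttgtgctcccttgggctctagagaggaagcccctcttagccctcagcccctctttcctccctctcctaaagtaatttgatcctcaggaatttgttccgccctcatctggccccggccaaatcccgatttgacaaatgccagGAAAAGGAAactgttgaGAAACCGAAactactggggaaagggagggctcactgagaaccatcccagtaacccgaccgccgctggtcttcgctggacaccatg
IFIT3: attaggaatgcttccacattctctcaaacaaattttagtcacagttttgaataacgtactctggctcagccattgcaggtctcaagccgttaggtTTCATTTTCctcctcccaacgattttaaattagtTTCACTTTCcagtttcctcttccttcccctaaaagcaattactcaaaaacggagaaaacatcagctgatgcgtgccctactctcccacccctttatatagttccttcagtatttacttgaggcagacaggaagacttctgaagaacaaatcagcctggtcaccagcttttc
ISG15: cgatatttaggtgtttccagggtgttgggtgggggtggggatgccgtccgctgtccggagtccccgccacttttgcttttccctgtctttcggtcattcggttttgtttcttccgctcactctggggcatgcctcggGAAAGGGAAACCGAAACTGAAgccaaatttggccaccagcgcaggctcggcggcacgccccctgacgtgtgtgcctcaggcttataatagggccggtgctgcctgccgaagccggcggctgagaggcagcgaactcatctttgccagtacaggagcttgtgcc
SNHG1: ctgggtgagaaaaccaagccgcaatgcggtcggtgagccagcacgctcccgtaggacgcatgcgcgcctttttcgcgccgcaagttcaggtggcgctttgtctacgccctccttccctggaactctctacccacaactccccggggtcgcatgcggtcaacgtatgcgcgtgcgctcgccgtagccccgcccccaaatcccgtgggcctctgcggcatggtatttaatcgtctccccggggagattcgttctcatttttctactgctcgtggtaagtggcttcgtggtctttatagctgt

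Of the 20 genes with the largest positive differences, 14 had a promoter in the RefSeq table, and 12 of these held GAAANNGAA. Of the 20 with the largest negative differences, 17 had a promoter there, and 2 of these held it. GAAANNGAA is counted below in the same way. It stood in 24 of 32 promoters (75%) of the antiviral effector genes listed below. Over all 27305 RefSeq promoters the share was 8.29%, and over the 9131 members matched by symbol it was 6.63%. The share was 22.1% (40 of 181) among genes called higher by 2-fold or more, 10.3% (3 of 29) among those called lower by 2-fold or more and 5.74% among those not called. Among cytosolic ribosomal protein genes, most of them lower in NC1, it stood in 11 of 63 promoters (17.5%). The promoters of the 2-fold higher genes were also poorer in CpG, the dinucleotide that is methylated in DNA. Their median ratio of observed to expected CpG was 0.63, against 0.849 over all matched members, 0.706 for the 2-fold lower genes and 0.39 for the 20 largest positive differences. These are shares of promoters with given letters and no measure of binding or methylation.

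Differences between NC1 and KO1 were widespread. At an adjusted p under 0.05 by limma, 5885 of 12263 genes were called (48%), of which 3584 were higher (29.2%) and 2301 lower in NC1 (18.8%). Large differences were mostly upward: 273 genes were higher by 2-fold or more (2.23%) and 47 were lower by as much (0.383%). The KO1 and NC1 libraries did not overlap in 6985 genes (57%). Counts per gene list below are to be read beside the overall shares of 29.2% higher and 18.8% lower. They include genes that passed the filter through only KO1 or only NC1, whose calls are no test. The split between higher and lower calls depended on the scaling. Higher genes made up 60.9% of the calls as deposited, 51.2% with trimmed-mean scaling, 47.0% with quantile normalization and 71.9% once mitochondrial genes were taken out. The median difference of all genes was 0.06 as deposited, 0.01, -0.02 and 0.12 under the other scalings in the same order, so small differences are best read relative to these shifts. Without NC1 replicate 3, the library with the lower mitochondrial share, 5601 genes were called, 57.5% of them higher. With 0.1 in place of 1 FPKM added before the logarithm, 658 genes in place of 320 passed 2-fold.

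**Figure D1:**
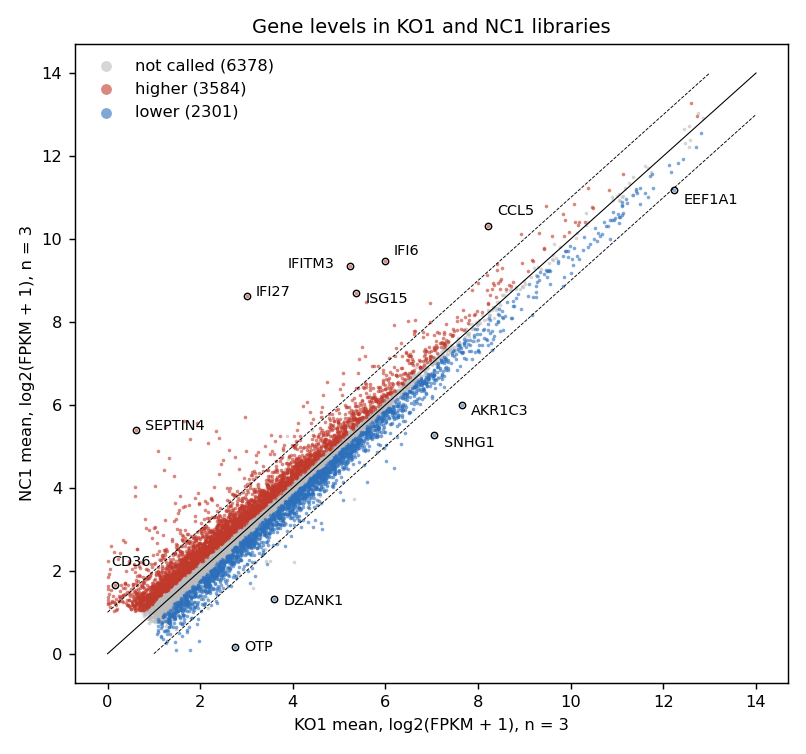
Mean level of each of the 12263 genes in KO1 (x axis) and NC1 (y axis), both as log2(FPKM + 1), n = 3 libraries each, coloured by call. The solid line marks equal levels and the dashed lines a 2-fold difference; the genes far above the upper line include IFI27, IFITM3, ISG15, IFI6 and SEPTIN4, and OTP and DZANK1 lie furthest below the lower line.

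Of the 20 largest positive differences, 14 belonged to the list of antiviral effectors that interferon induces. That list holds 41 of the 12263 members. It was drawn up with earlier results of these data known, so the overlap is no independent test. IFIT3, which belongs to a family of cytoplasmic proteins that bind foreign RNA, was at 2.23, 2.34 and 1.9 FPKM in KO1 and at 47.2, 46.3 and 49.5 in NC1. IFIT2 of the same family was at 1.03, 1.21 and 1.15 FPKM in KO1 and at 27.1, 28.1 and 29.9 in NC1. OASL, an oligoadenylate synthetase-like protein, was at 2.5, 2.54 and 2.24 FPKM in KO1 and at 33.8, 34.9 and 35.9 in NC1. In each of these the NC1 libraries lay close together and more than 10-fold above KO1. ZC3HAV1, which binds CpG-rich viral RNA and leads to its decay, rose by 2.74 on the log2 scale (SE 0.0704, adjusted p = 1.41e-10). LGALS3BP, a secreted galectin-binding glycoprotein, rose 16.3-fold from 2.51 to 3.29 FPKM in KO1 to between 44.7 and 46.7 in NC1.

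Not all of the 20 are textbook antiviral genes. SEPTIN4, which encodes a septin with a pro-apoptotic splice form, was at 0.828, 0.448 and 0.317 FPKM in KO1 and at 41.8, 41.4 and 39 in NC1. TESC, a calcium-binding protein that regulates a sodium-proton exchanger, was at 4.15, 3.35 and 4.64 FPKM in KO1 and at 40.5, 40.8 and 39.4 in NC1. PLEKHA4, a phosphoinositide-binding adaptor of Wnt signalling, was at 1.8, 1.81 and 1.45 FPKM in KO1 and at 17.5, 19.6 and 18.4 in NC1. These 3 genes rose by 4.78, 3.04 and 2.86 on the log2 scale. SEPTIN4 passed the filter through NC1 alone, so no test is given for it. For TESC and PLEKHA4, chosen for their large called differences, the adjusted p-values were 2.49e-10 and 1.29e-10. HLA-DRA, the alpha chain of an MHC class II molecule that presents peptides to helper T cells, rose 8.34-fold from 4 to 4.65 FPKM to between 34.4 and 38.2. IFITM1 and IFITM3 share near-identical stretches, and how reads were divided between them is not stated, so their single values are uncertain.

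**Figure D2:**
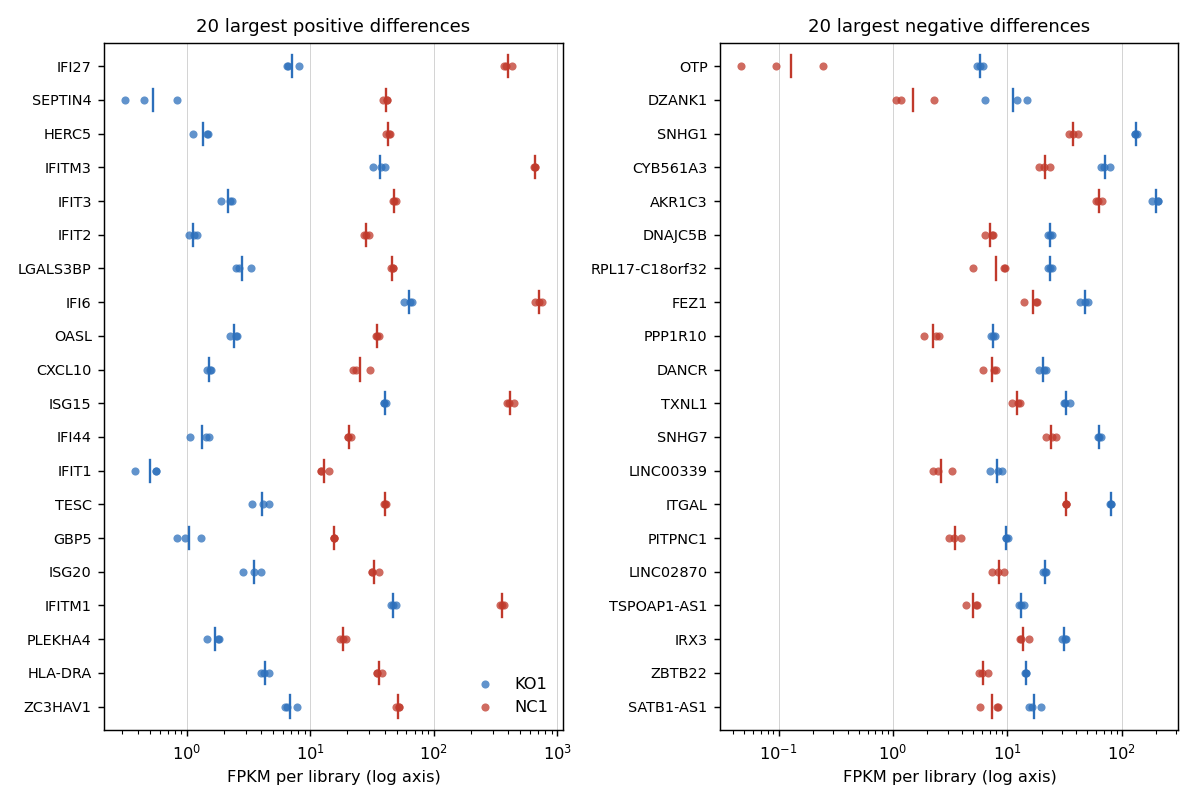
FPKM per library on a log axis for the 20 genes with the largest positive (left) and the 20 with the largest negative differences (right), KO1 in blue and NC1 in red, points for libraries and ticks for group means (n = 3). Groups do not overlap in any of them, as the choice of genes required. Libraries of the same group are spread widely for OTP in NC1, SEPTIN4 in KO1 and DZANK1 in both groups.

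Of the interferon genes themselves, 22 were listed, 19 of them at 0 in all 9 libraries. IFNB1, the interferon beta gene, was listed at 0.0285, 0.112 and 0 FPKM in KO1 and at 4.28, 4.15 and 6.61 in NC1. IFNL1, a type III interferon, was listed at 0 in all 3 KO1 libraries and at 2.48, 2.35 and 2.91 FPKM in NC1. Both were thus at or near 0 in every KO1 library and above 2 FPKM in every NC1 library. IFNB1 rose by 2.5 on the log2 scale (SE 0.137). It was singled out after its values were seen, as rank and list did not name it. Since IFNB1 also passed the filter through NC1 alone, no test is given. In NCO, IFNB1 was at 4.55 ± 0.36 and IFNL1 at 2.08 ± 0.19 FPKM (SD, n = 3).

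Among 16 measured sensors of RNA and DNA, 8 rose, 3 fell and 5 were not called, against 29.2% and 18.8% over all genes. The 3 cytoplasmic RNA helicases that recognise viral RNA were each higher in NC1. DDX58, which encodes RIG-I, was at 0.771, 0.843 and 0.972 FPKM in KO1 and at 6.79, 6.78 and 7.12 in NC1. It passed the filter through NC1 alone, so its call is no test. IFIH1, which encodes MDA5, was at 2.91, 3.17 and 2.47 FPKM in KO1 and at 13.8, 13.7 and 13.4 in NC1. DHX58, which encodes their regulator LGP2, rose 5.29-fold. Of the sensors of DNA, IFI16 rose 2.66-fold, while CGAS, the enzyme that makes the second messenger cGAMP from cytosolic DNA, fell by 0.33 on the log2 scale and its receptor STING1 fell by 0.19. CGAS was at 9.08, 9.12 and 9.15 FPKM in KO1 and at 6.41, 6.41 and 8.43 in NC1, with replicate 3 closest to KO1. MAVS, the adaptor of the RNA helicases, and IRF3, the factor that acts on interferon genes, were not called, with differences of -0.10 and 0.02. AIM2 and ZBP1, which also sense nucleic acid, did not pass the filter: AIM2 was listed at 0 in KO1 and at 0.431, 0.309 and 0.788 FPKM in NC1, and ZBP1 at 0.0121, 0 and 0 in KO1 and at 0.623, 0.71 and 0.34 in NC1. AIM2, ZBP1, CGAS, STING1, MAVS and IRF3 were named after their values were seen.

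Of 27 measured interferon receptors, kinases and transcription factors, 12 rose, 2 fell and 13 were not called. The receptor chains IFNAR1 and IFNAR2 were not called, at 4.94 ± 0.34 and 19.5 ± 1.84 FPKM in KO1 and 5.14 ± 0.499 and 19.8 ± 0.612 in NC1 (SD, n = 3). STAT3, a factor shared by many cytokine receptors, was at 8.51, 8.44 and 8.67 FPKM in KO1 and at 27.4, 27.2 and 29.3 in NC1. The ratios were 3.27 for STAT3 and 1.4 for STAT2. The kinase JAK2 rose 2.89-fold, the interferon regulatory factor IRF7 1.8-fold and USP18, which removes ISG15 and dampens the receptor, 2.76-fold. IRF9, a partner of STAT2, was not called: it was at 10.6, 3.25 and 9.15 FPKM in KO1 and at 4.18, 2.81 and 7.63 in NC1, so the groups overlapped. IFNAR1, IFNAR2, STAT2 and IRF9 were named after their values were seen.

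**Figure D3:**
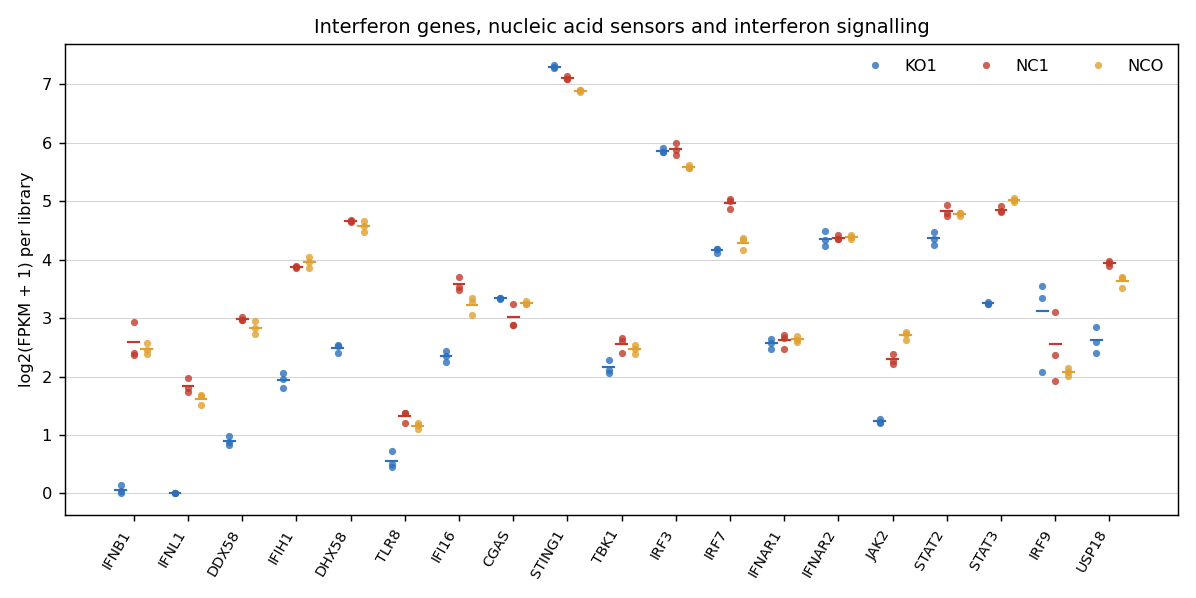
Level per library as log2(FPKM + 1) of interferon genes, nucleic acid sensors and interferon signalling genes in KO1 (blue), NC1 (red) and NCO (orange), ticks for the log2 of the group mean plus 1 (n = 3). IFNB1 and IFNL1 are at or near 0 in KO1, the RNA helicases DDX58, IFIH1 and DHX58 are several-fold higher in NC1, and the KO1 and NC1 libraries overlap for IFNAR1, IFNAR2 and IRF3.

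Most measured genes of antiviral defence and peptide presentation were called higher in NC1. Of 41 antiviral effector genes 40 rose and 0 fell, with a median difference of 1.31 on the log2 scale against 0.06 over all genes. Of 15 genes of the GBP, PARP and APOBEC3 families, which act against intracellular pathogens, viruses and mobile elements, 14 rose and 0 fell. GBP5, a guanylate-binding GTPase, was at 0.974, 1.31 and 0.83 FPKM in KO1 and at 15.5, 15.6 and 15.4 in NC1. PARP14, an ADP-ribosyltransferase, rose 3.36-fold. Of 19 immunoproteasome and peptide loading genes, 11 rose and 1 fell (2 without NCO replicate 1, with trimmed-mean scaling or with quantile normalization). PSMB9, an immunoproteasome subunit, rose 1.66-fold, and PSMB6, the subunit that it replaces in that particle, rose more, 1.97-fold, from between 45.2 and 47.9 to between 88.6 and 93.7 FPKM. HLA genes are similar in sequence, so the single values of HLA-C (ratio 1.36) and HLA-E (ratio 1.37) are uncertain.

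Genes of secreted signals were mostly higher too. Of 27 measured chemokines and cytokines, 17 rose and 3 fell (5 fell with trimmed-mean scaling, with quantile normalization or without NC1 replicate 3). CCL5, which attracts T cells and monocytes, was among the most abundant transcripts of this kind, at 298, 295 and 289 FPKM in KO1 and at 1272, 1355 and 1214 in NC1. CXCL11, which attracts activated T cells through CXCR3, was at 0.0835, 0.113 and 0.0951 FPKM in KO1 and at 4.35, 4.23 and 4.79 in NC1. It passed the filter through NC1 alone, so its call is no test. CXCL10, a ligand of the same receptor, was at 1.44, 1.56 and 1.54 FPKM in KO1 and at 22.2, 23.5 and 30.2 in NC1. For these 3 chemokines the lowest NC1 library thus lay at least 4-fold above the highest KO1 library. TNFSF13B, the B cell survival factor BAFF, rose 8.44-fold.

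Among members with an approved symbol, 11 genes were under 0.1 FPKM in all 3 KO1 libraries and at 1 or more in all 3 NC1 libraries. In this search 0 genes showed the opposite, and genes without such a symbol were not searched. Over all 12263 members, 285 were at 1 FPKM or more in all 3 NC1 and no KO1 library, and 80 the other way. P3H2, a collagen prolyl hydroxylase, was at 0.0902, 0.0182 and 0.0175 FPKM in KO1 and at 2.58, 3.44 and 3.43 in NC1. KCNN1, a calcium-activated potassium channel, was at 0.0433, 0.0136 and 0 in KO1 and at 2.68, 2.72 and 3.02 FPKM in NC1. ZBTB32, a transcriptional repressor of lymphocytes, was at 0, 0 and 0.0198 FPKM in KO1 and at 1.76, 2.12 and 2.45 in NC1. CSAG3, a cancer-testis gene with near-identical copies on the X chromosome, was listed at 0 in KO1 and at 1.88, 1.64 and 2.37 FPKM in NC1. CEACAM1, an adhesion receptor of leukocytes and epithelia, was listed at 0 in KO1 and at 1.51, 1.29 and 1.55 in NC1. PRSS23, a secreted serine protease, stood at 0.0556 ± 0.0369 FPKM in KO1 and 1.89 ± 0.236 in NC1. PLAAT2, a phospholipase and acyltransferase, was listed at 0 in KO1 and varied most in NC1, at 2.07, 1.67 and 1.05 FPKM. With IFNL1 these are the 8 highest of the 11, and whether any listed 0 is a true absence cannot be read from FPKM.

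Among genes of monocytes and of granules more were called higher than lower in NC1, as was so over all genes (29.2% against 18.8%). Of 37 measured monocyte surface receptors, 17 rose, 5 fell and 15 were not called (14 rose and 9 fell with trimmed-mean scaling, and 3 fell without KO1 replicate 1, without NC1 replicate 1 or without NC1 replicate 2). SIGLEC1, a sialic acid receptor of macrophages, was at 1.96, 1.8 and 1.89 FPKM in KO1 and at 9.55, 9.21 and 10 in NC1. CSF1R, the receptor that drives monocyte growth, was at 15.2, 12.8 and 14.2 FPKM in KO1 and at 26.5, 26 and 26.4 in NC1. In both the libraries of a group lay close together. Of 13 azurophil granule genes, which neutrophil and monocyte precursors make, 8 rose and 1 fell. The latter count was 0 without KO1 replicate 1 or 2 or NC1 replicate 1 or 2, with no filter or with quantile normalization. Ratios were 2.25 for RNASE2, 1.99 for PRTN3 and 1.41 for CTSG. Of 19 S100 proteins and annexins 14 rose and 1 fell (3 without NC1 replicate 3); S100A9, an abundant calcium-binding alarmin, was at 239, 233 and 220 FPKM in KO1 and at 398, 420 and 477 in NC1. Of 8 subunits of the phagocyte NADPH oxidase 4 rose, 1 fell and 3 were not called. The membrane subunit CYBB rose 1.3-fold with an adjusted p of 0.011, which was 0.0705 under quantile normalization.

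General markers of the leukaemic cells were called in both directions. Of 9 measured myeloid identity genes 2 rose, 2 fell and 5 were not called, near the shares over all genes. The count that fell was 1 without any 1 of the KO1 libraries and without NC1 replicate 2 or 3. CEBPA, the transcription factor of granulocyte and monocyte fate, was at 225, 226 and 244 FPKM in KO1 and at 125, 132 and 154 in NC1. ITGAM, the alpha chain of the complement receptor CR3, rose from 11.5 ± 0.0809 to 15.5 ± 0.938 FPKM (SD, n = 3), a ratio of 1.34. FLT3, the receptor tyrosine kinase that is mutated in this line, was at 4.36, 4.55 and 4.43 FPKM in KO1 and at 4.16, 3.15 and 3.61 in NC1, with an adjusted p of 0.0366. This call was lost without KO1 replicate 1, 2 or 3 and without NC1 replicate 2 or 3, with adjusted p-values up to 0.142. Of 16 receptor tyrosine kinases 6 rose and 6 fell, the latter count 3 without KO1 replicate 3. AXL, a TAM receptor for GAS6, stood out with 1.29, 1.58 and 1.17 FPKM in KO1 and 8.12, 8.39 and 8.58 in NC1, and with 3.32 ± 0.199 in NCO. Of 19 measured HOX and cofactor genes 4 rose and 7 fell (11 fell with quantile normalization). HOXA9, a gene that MLL fusions keep active, rose from 43.8 ± 1.31 to 51.2 ± 1.3 FPKM, whereas its neighbour HOXA7 fell from 2.81 ± 0.181 to 1.27 ± 0.136.

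Adhesion and cytoskeletal genes included some of the strongest single differences. ITGAL, the alpha chain of the leukocyte integrin LFA-1, was at 80.1, 79.6 and 80.8 FPKM in KO1 and at 32.3, 32.6 and 32.4 in NC1. ITGAX, the alpha chain of the complement receptor CR4, was at 22.6, 22.6 and 25.6 FPKM in KO1 and at 44.3, 39.5 and 39 in NC1. The alpha chains of these related integrins, which share a beta chain, thus went opposite ways. Of 30 integrin and adhesion genes 11 rose and 7 fell, against 29.2% and 18.8% over all genes. Of 34 septins, tubulins and actin regulators 20 rose and 2 fell. PFN1, which supplies actin monomers to growing filaments, was at 713, 708 and 700 FPKM in KO1 and at 1774, 1857 and 1651 in NC1. LMNA, which encodes lamins of the nuclear rim, rose 1.63-fold.

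Lysosomal genes were mostly higher in NC1. Of 37 lysosomal enzymes and membrane proteins 25 rose and 2 fell, with a median of 0.28. The latter count was 5 with trimmed-mean scaling or quantile normalization. It was 1 without KO1 replicate 1 or 2, with mitochondrial genes removed or with a replicate block. CD68, a lysosomal glycoprotein of macrophages, was at 75.6, 69 and 71.8 FPKM in KO1 and at 244, 253 and 224 in NC1. The cathepsins CTSL and CTSZ rose 1.8-fold and 1.57-fold. Of 16 subunits of the proton pump that acidifies lysosomes, the vacuolar ATPase, 8 rose and 3 fell. The former count was 5 without KO1 replicate 3 or with no filter. The latter was 1 without KO1 replicate 3, NC1 replicate 1 or any 1 NCO library. It was also 1 with the 6 libraries alone, no filter, mitochondrial genes removed or plain moderation. ATP6V0B fell to a ratio of 0.663. Of 27 autophagy genes 11 rose and 2 fell. The latter count was 1 without KO1 replicate 1 or 2, NC1 replicate 1 or 3, or NCO replicate 1 or 2. It was also 1 with the 6 libraries alone, no filter, mitochondrial genes removed, a replicate block or plain moderation. GABARAP, which coats autophagosome membranes, rose 2.23-fold, and ULK1, the kinase that starts autophagy, fell by 0.51 on the log2 scale. CST3, a secreted inhibitor of cathepsins, rose 2.05-fold. Of 27 pericellular proteases and inhibitors 12 rose and 6 fell, against 29.2% and 18.8% over all genes. The complement genes C1QA and C1QC rose 3.28-fold and 6.56-fold, among 17 measured genes of complement and coagulation of which 7 rose and 3 fell.

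Most measured genes of protein folding in the cytosol and the endoplasmic reticulum were called higher in NC1. Of 30 heat shock genes 21 rose and 4 fell, with a median of 0.50. HSP90AA1, the inducible cytosolic HSP90, was at 40.4, 42.2 and 43.7 FPKM in KO1 and at 131, 135 and 141 in NC1. DNAJA1, a co-chaperone of HSP70, rose 2.83-fold. HSPA1B rose 5.65-fold, but it has a near-identical neighbour copy and its own value is uncertain. Of 33 endoplasmic reticulum chaperones 22 rose and 3 fell, with a median of 0.42. The latter count was 0 without KO1 replicate 1 or with mitochondrial genes removed. It was 1 without KO1 replicate 2, NC1 replicate 1 or NC1 replicate 2 or with no filter. HSPA5, which encodes BiP, was at 99.4, 99 and 97.9 FPKM in KO1 and at 259, 256 and 279 in NC1. PDIA4, which forms disulphide bonds, rose 3.11-fold and the calcium-binding chaperone CALR 2.27-fold. GAANNTTC, an inverted pair of heat shock units searched on both strands, stood in 8 of 26 heat shock gene promoters (30.8%) and in 6.87% of all RefSeq promoters. Its share was 11.0% among genes called higher by 2-fold or more and 17.2% (5 of 29) among those called lower by as much. Of 32 AP-1 and immediate early genes 24 rose and 3 fell; JUN, an AP-1 subunit, was at 34.5, 32.9 and 32 FPKM in KO1 and at 86.5, 92.6 and 91.3 in NC1. Immediate early and heat shock genes also respond to how cells are handled before lysis, and the part of handling in these differences was not tested.

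In the list of amino acid synthesis genes and targets of ATF4, the factor of the amino acid and stress response, more genes were called lower than higher. Of 27 measured genes 17 fell and 6 rose, and these counts were the same under all 3 other scalings. TRIB3, a pseudokinase that feeds back on ATF4, was at 310, 312 and 319 FPKM in KO1 and at 152, 155 and 170 in NC1. SHMT2, which turns serine into glycine in mitochondria, was at 275, 267 and 272 FPKM in KO1 and at 170, 174 and 174 in NC1. The groups were far apart in both. The members that rose include DDIT3, which encodes CHOP, with a ratio of 2.32, and PPP1R15A, which encodes GADD34 and brings in a phosphatase for eIF2 alpha, with a ratio of 1.84. Of 20 aminoacyl-tRNA synthetases 3 rose and 7 fell; WARS1, an interferon-inducible synthetase, rose 1.56-fold and QARS1 fell to a ratio of 0.561. Among 27 polyamine and folate enzymes 12 fell and 2 rose (1 without KO1 replicate 1 or 2), TYMS and MTHFD1L falling to ratios of 0.697 and 0.546. SAT1, which breaks polyamines down, was the exception with the smallest p, at 24.2, 23.8 and 23.7 FPKM in KO1 and 58.8, 58.2 and 63.9 in NC1. SLC1A5, the glutamine importer, fell from 153 ± 1.37 to 85 ± 6 FPKM. The adenine nucleotide carriers SLC25A5 and SLC25A6 fell to ratios of 0.58 and 0.507. Over all 195 measured solute carriers 53 rose and 46 fell, against 29.2% and 18.8% over all genes.

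The machinery of cytosolic translation was mostly lower in NC1. Of 79 cytosolic ribosomal protein genes 56 fell, 4 rose and 19 were not called, with a median of -0.27. Lower calls were commoner among abundant genes in general: of the 609 genes over 100 FPKM, 42.0% were lower and 28.1% higher. Under trimmed-mean scaling 59 fell and 3 rose, with mitochondrial genes removed 48 fell and 4 rose, and under quantile normalization 41 fell and 8 rose. RPLP0, a protein of the ribosomal stalk, was at 3438, 3098 and 3236 FPKM in KO1 and at 1991, 2032 and 2153 in NC1. RPS10 was at 4683, 4742 and 4437 FPKM in KO1 and at 3168, 3176 and 3134 in NC1. RPL5, which carries 5S RNA to the ribosome, was at 1523, 1583 and 1475 FPKM in KO1 and at 984, 927 and 1065 in NC1. In all 3 the highest NC1 library lay below the lowest KO1 library. RPL26 was among the exceptions, at 1078, 1112 and 1023 FPKM in KO1 and at 1887, 1906 and 1700 in NC1, and RPL28, RPS24 and RPL11 also rose, by 0.57, 0.26 and 0.21. Ribosomal protein genes have many processed pseudogenes and how shared reads were counted is not stated, so single values are uncertain. For the most abundant genes a few calls were lost with the scaling: RPL13A, RPS20 and RPL8, called lower as deposited by 0.35, 0.17 and 0.18 on the log2 scale, came to differences of 0.011, 0.012 and 0.013 under quantile normalization, none of them called.

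Translation factors were mostly lower too, in a list put together after the values were seen. Of 24 genes 15 fell and 2 rose, with a median of -0.39. Here too the share of 42.0% lower among all genes over 100 FPKM is to be kept in mind. EEF1A1, which brings aminoacyl-tRNA to the ribosome and has many pseudogenes, was at 4674, 4596 and 5220 FPKM in KO1 and at 2556, 1991 and 2420 in NC1, with 3442 ± 140 in NCO. EEF2, the translocation factor, was at 1858, 1844 and 1843 FPKM in KO1 and at 1027, 1045 and 970 in NC1. EIF1, which guards start codon choice, was at 580, 588 and 558 FPKM in KO1 and at 274, 267 and 325 in NC1. Each fell to close to 0.5 of its KO1 level, with ratios of 0.481, 0.549 and 0.502. The 2 that rose were EIF4A1 and EIF5A, by 0.37 and 0.49.

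Host genes of small nucleolar RNAs, many of which begin with a terminal oligopyrimidine tract as ribosomal protein genes do, were mostly lower as well. Of 25 genes 15 fell and 1 rose (2 without KO1 replicate 1 or NCO replicate 2), with a median of -0.35. SNHG1 was at 136, 129 and 131 FPKM in KO1 and at 34.7, 37.1 and 41.3 in NC1. SNHG7 was at 62.9, 65.6 and 62.2 FPKM in KO1 and at 24.4, 21.6 and 26.8 in NC1. SNHG29 was at 1062, 1087 and 1042 FPKM in KO1 and at 630, 631 and 736 in NC1. Of 39 measured genes for the factors that build ribosomes 10 rose and 11 fell, with NOP58, a core protein of box C/D particles, at a ratio of 1.65 and NPM1, the nucleolar histone chaperone, at 0.663. The count that rose was 5 without KO1 replicate 2 or with quantile normalization. Of 74 mitochondrial ribosomal proteins 22 rose and 18 fell, shares close to the 29.2% and 18.8% over all genes. These counts were 15 and 21 with trimmed-mean scaling and 26 and 11 with mitochondrial genes removed.

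**Figure D4:**
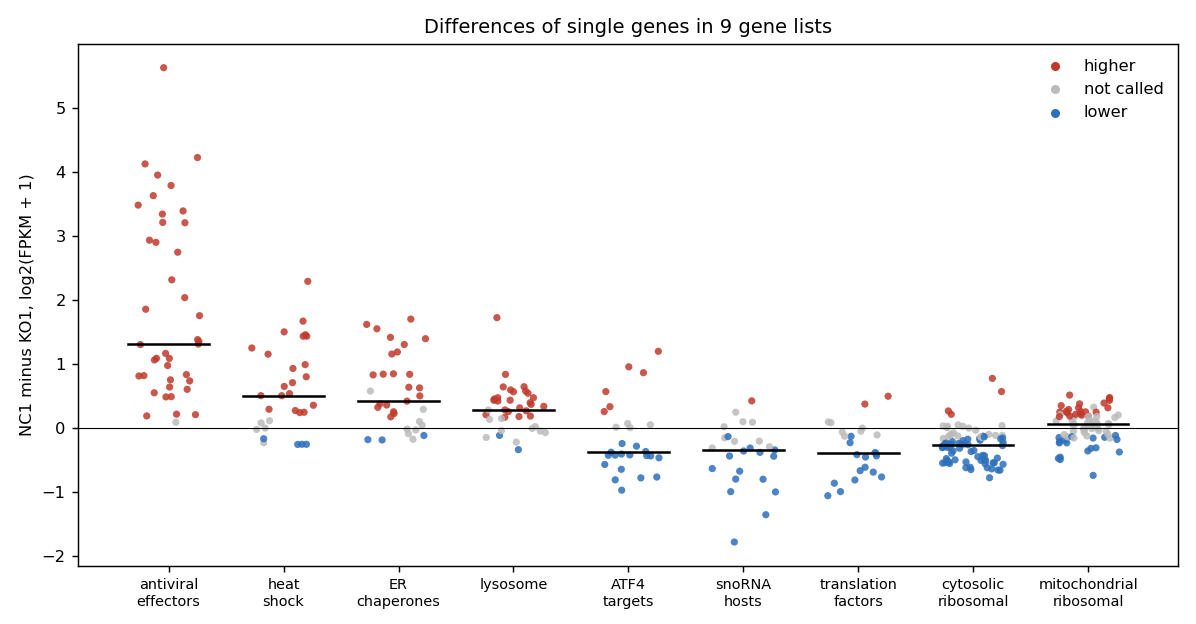
Difference of each measured gene between NC1 and KO1 on the log2(FPKM + 1) scale in 9 gene lists, coloured by call, with a black line at the median of each list. The medians of antiviral effectors, heat shock genes and endoplasmic reticulum chaperones lie at 1.31, 0.50 and 0.42, those of ATF4 targets and amino acid synthesis, snoRNA hosts, translation factors and cytosolic ribosomal proteins at -0.38, -0.35, -0.39 and -0.27.

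Among the 20 largest negative differences, 7 are annotated as other than protein-coding. OTP, a homeobox factor of hypothalamic development, was at 5.38, 5.79 and 6.06 FPKM in KO1 and at 0.0941, 0.047 and 0.242 in NC1. DZANK1, a protein with zinc ribbons and ankyrin repeats, varied within KO1, at 12.2, 14.8 and 6.38 FPKM, and was at 1.05, 2.27 and 1.18 in NC1. CYB561A3, a lysosomal iron reductase, was at 65.5, 79 and 70.3 FPKM in KO1 and at 21.1, 18.8 and 23.5 in NC1. The groups did not overlap in any of the 3, as the choice of genes required. AKR1C3, an aldo-keto reductase that acts on steroids and prostaglandins, was at 205, 206 and 185 FPKM in KO1 and at 60, 61.4 and 67.5 in NC1. FEZ1, an adaptor of kinesin transport, fell to a ratio of 0.351 and PPP1R10, a nuclear targeting subunit of protein phosphatase 1, to 0.3. IRX3, a homeobox factor that is switched on in some acute leukaemias, was at 32.6, 30.1 and 31.7 FPKM in KO1 and at 12.9, 13.1 and 15.5 in NC1. PITPNC1, a lipid transfer protein, fell to a ratio of 0.355 and DNAJC5B, a J-domain protein, to 0.301. TXNL1, a thioredoxin-like protein of the proteasome, fell to a ratio of 0.368, and RPL17-C18orf32, a readthrough whose exons overlap those of RPL17, to 0.338 with an adjusted p of 0.023. The latter call was lost without KO1 replicate 1, 2 or 3 or NC1 replicate 2, with adjusted p-values up to 0.0694. The non-coding DANCR, LINC00339, LINC02870, TSPOAP1-AS1 and SATB1-AS1 fell to ratios of 0.354, 0.33, 0.395, 0.383 and 0.432. Use of strand is not stated, so the antisense genes cannot be told from transcripts of the opposite strand.

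Survival genes moved in both directions. Of 16 measured BCL2 family genes 4 rose and 6 fell, against 29.2% and 18.8% over all genes. BCL2, which blocks the mitochondrial path of apoptosis, was at 16.5, 16.6 and 16.7 FPKM in KO1 and at 8.38, 7.81 and 8.25 in NC1. PMAIP1, which encodes NOXA, was at 10.8, 11.3 and 9.81 FPKM in KO1 and at 27.4, 27.9 and 31.1 in NC1. MCL1, the survival protein that NOXA binds, rose 1.37-fold, and BAD, a BH3-only protein, fell to a ratio of 0.654. Of 35 death receptor, caspase and inflammasome genes 15 rose and 2 fell, among them CASP1, the protease that matures interleukin 1 beta, with a ratio of 2.16. Of 26 NF-kB subunits and inhibitors 13 rose and 0 fell, the former count 8 with trimmed-mean scaling, without KO1 replicate 1 or without KO1 replicate 2. The members with the smallest p were mainly inhibitors or modulators of the pathway, TNIP1 at a ratio of 1.78, NFKBIZ at 2.09 and BCL3 at 1.67.

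Redox and iron genes were called in both directions. Of 31 NRF2 and glutathione genes 10 rose and 8 fell, near the shares over all genes. PRDX1, a peroxidase, rose 1.47-fold, whereas TKT and PGD of the pentose phosphate pathway fell to ratios of 0.671 and 0.76. Of 24 iron and haem genes 10 rose and 4 fell; 6 rose without KO1 replicate 2, and 2 fell without KO1 replicate 3 or NC1 replicate 1. FTL, the ferritin light chain, was among the most abundant transcripts, at 6680, 6847 and 6767 FPKM in KO1 and at 7839, 8234 and 7740 in NC1, a call that was lost under quantile normalization. GAPDH, often taken as a constant reference, was at 5666, 5648 and 5208 FPKM in KO1 and at 3804, 4055 and 3795 in NC1; this call was lost under quantile normalization too. Of 18 eicosanoid enzymes 5 rose and 4 fell (9 rose with mitochondrial genes removed, 3 with quantile normalization or without NC1 replicate 3). ALOX5AP and LTC4S, which make leukotrienes, fell to ratios of 0.657 and 0.487.

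**Figure D5:**
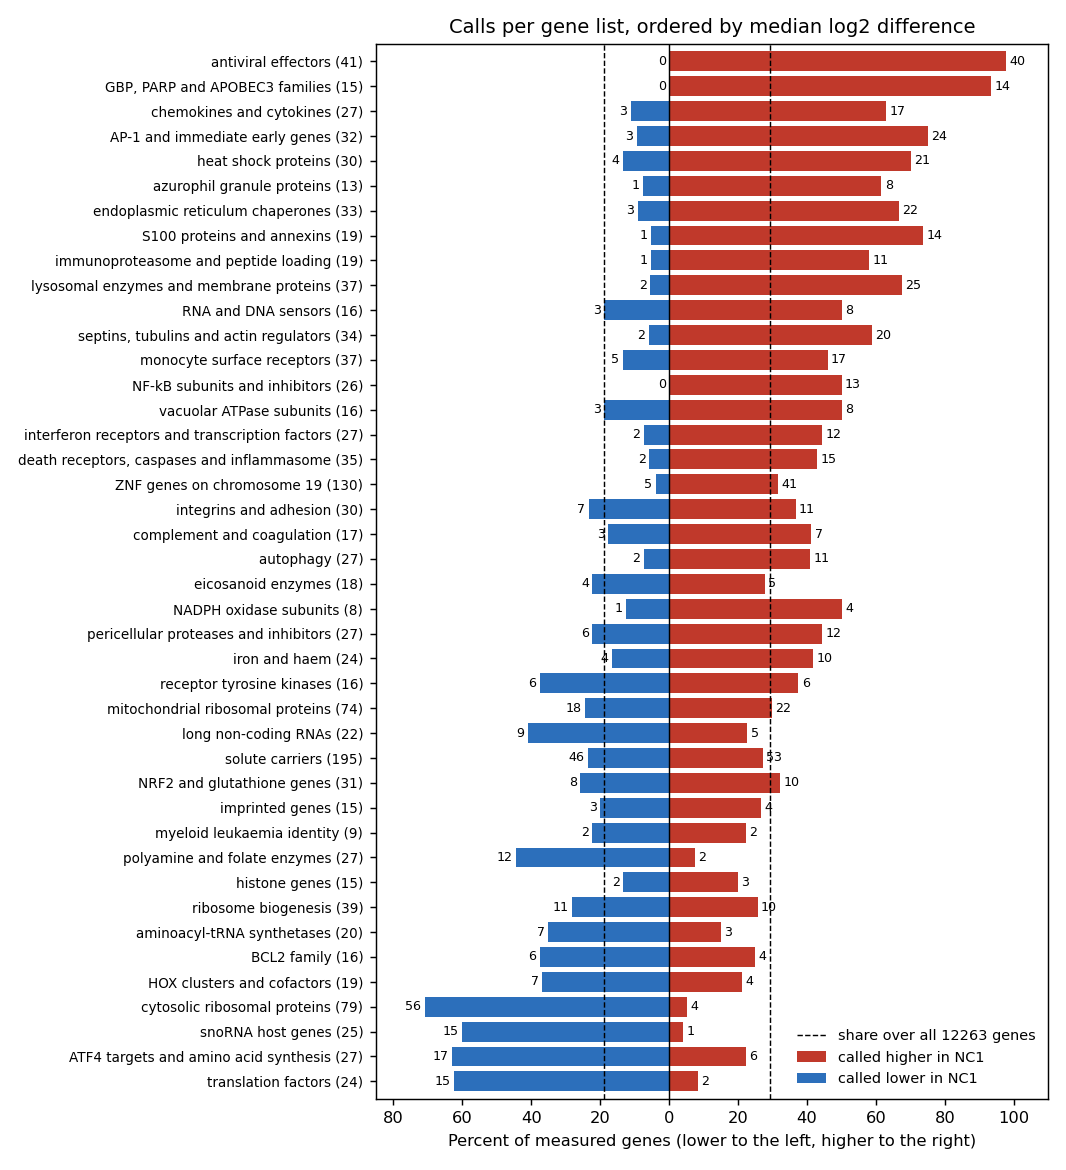
Share of the measured genes of each list called higher (red, to the right) or lower in NC1 (blue, to the left), in percent, with the number of genes at each bar and the number measured in brackets; dashed lines give the shares over all 12263 genes, 29.2% and 18.8%. Lists are ordered by their median difference, from antiviral effectors at the top to translation factors at the bottom.

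The direction of the calls varied with the class and the level of the gene. Of 10903 protein-coding genes 31.2% were higher and 18.4% lower. Of 872 long non-coding RNAs 12.04% were higher and 26.1% lower. MALAT1 went against that lean, at 34.7, 41.1 and 45.1 FPKM in KO1 and at 71.2, 88.3 and 90.7 in NC1. Among the 609 genes over 100 FPKM 28.1% were higher and 42.0% lower, and among the 2051 genes under 2 FPKM 27.2% and 10.2%. Many ZNF genes on chromosome 19 encode repressors of mobile elements. Of 130 measured 41 rose, a share near the 29.2% over all genes, and 5 fell, against 18.8%. The lower share was 11.7% among all genes at 2 to 5 FPKM and 10.2% among those under 2 FPKM. Under quantile normalization 22 rose and 11 fell. The lower count was 3 without KO1 replicate 1, NC1 replicate 1 or NCO replicate 2. ZNF506 was close to 0 in KO1, at 0, 0.0197 and 0 FPKM, and at 1.28, 1.57 and 1.09 in NC1. It passed the filter through NC1 alone, so its call is no test. Of 15 measured imprinted genes 4 rose and 3 fell and of 15 histone genes 3 rose and 2 fell, against 29.2% and 18.8% over all genes. Of the imprinted genes 2 rose without KO1 replicate 2 or 3 or NC1 replicate 1. Of the histone genes 1 fell without KO1 replicate 2 or 3 and 4 without NC1 replicate 3.

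By chromosome, the share of lower calls ran from 11.2% on chromosome 14 to 30.2% on chromosome 6 among the autosomes. On chromosome 6, 113 of 577 genes were higher and 174 lower, a median difference of -0.04 against 0.06 over all genes. On chromosome 17, 34.1% were higher and 24.6% lower, and 31 genes were higher by 2-fold or more.

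Markers of other cell types were checked beside these groups. None of 6 erythroid and megakaryocytic markers passed the filter, and HBA1 and PF4 were listed at 0 in all 9 libraries. Of 6 lymphoid markers 1 passed, NKG7, with a ratio of 1.36, while CD3E was listed at 0 throughout. Of 6 stromal or epithelial markers 1 passed, COL1A1, at 0.371 ± 0.199 FPKM in KO1 and 1.44 ± 0.155 in NC1. The summed level of the 9 measured myeloid identity genes was 733 to 745 FPKM in KO1 and 631 to 648 in NC1.

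NCO shares the description of the drug with NC1, and 1877 of the 12263 genes (15.3%) were called between these groups. IFI27 stood at 137 ± 2.72 FPKM in NCO, 396 ± 28.9 in NC1 and 7.04 ± 0.897 in KO1 (SD, n = 3). SEPTIN4 stood at 44.5 ± 2.08 in NCO, 40.7 ± 1.53 in NC1 and 0.531 ± 0.265 in KO1. OTP stood at 0.117 ± 0.122 in NCO, 0.128 ± 0.102 in NC1 and 5.74 ± 0.34 in KO1. IFI27 was thus between the other groups in NCO, while SEPTIN4 and OTP were near their NC1 level. Because NC1 enters both comparisons, these levels are given side by side and the comparisons are not set against each other.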

How the data were processed

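RNA sequencing of MV4-11 cells gave 9 libraries, 3 per title stem, grouped by title. Levels per gene and library were deposited by the authors in FPKM; the unit was read from the values and from StringTie, which writes it. Per the submitters' processing notes, CASAVA 1.8, Trimmomatic, FastQC, HISAT2, StringTie and edgeR and the build GRCh38 were used, in roles and with an annotation release not given in the sources used here. FPKM hides the depth and how shared reads were divided, so no counting error is given, and whole reads could not be recovered from the low values. Further sheets were not used here. Genes with at least 1 FPKM in 3 of the 6 KO1 and NC1 libraries were kept. Values were tested as log2(FPKM + 1), which understates fold changes of low genes, with all 9 libraries fitted by group in limma 3.58.1 (R 4.3.3) under a trend and robust moderation. P-values are two-sided and adjusted by Benjamini-Hochberg over 12263 genes, and a call is an adjusted p under 0.05. Ratios are of group means in FPKM. The method was tested on simulated data. Members and lists were chosen with earlier results of these data known.

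Named genes are CD36, the 20 largest positive and negative differences among called genes that have an approved symbol, reach 5 FPKM as a group mean and do not overlap between groups, up to 4 genes per list with the smallest p, genes under 0.1 FPKM in one group and at 1 or more in the other, and the 10 most abundant called nuclear genes; others are said to be chosen after their values were seen. The search for genes under 0.1 FPKM in one group also took approved symbols only. Promoters are those of RefSeq on GRCh38.p14. Alternatives were the 6 libraries alone, another pseudocount, no filter or one of 5 FPKM, 3 other scalings, a replicate block, plain moderation and leaving out each library. Results for some genes are not reported here.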

Additional observations from a re-analysis of the deposited data

How the results depend on the processing

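Of 212 genes named by rule besides CD36, 203 kept their direction and their call under every alternative that tested them. Most rules picked genes for large differences or small p-values, so this count does not carry over to the other calls. The exceptions among the 212 are RPL17-C18orf32, CYBB, FLT3, FTL, GAPDH, RPS2, RPL8, RPL13A and RPS20. Under quantile normalization RPL13A, RPS20 and RPL8 came to 0.011, 0.012 and 0.013 on the log2 scale, and FTL, GAPDH and RPS2 lost their calls with adjusted p-values of 0.788, 0.453 and 0.421; the cause was not tested. RPL8 and FLT3 were also lost with the 6 libraries alone, with no filter and with mitochondrial genes removed, and RPL8 with plain moderation. RPL8 was lost without KO1 replicate 1 or 2 and without NC1 replicate 1 or 3, with adjusted p-values up to 0.0906. With a filter at 5 FPKM, which leaves 7354 genes, 2234 were higher in NC1 and 197 passed 2-fold. With a pseudocount of 0.1 FPKM, 658 passed 2-fold. Leaving out 1 library gave 4938 to 5924 calls, 3063 to 3605 higher, 1868 to 2383 lower and 321 to 340 past 2-fold, and CD36 differences of 1.41 to 1.58 on the log2 scale. Over the 44 lists with a median, 34 medians kept their sign under the 3 other scalings and 10 did not: NRF2 and glutathione genes, complement and coagulation, histone genes, imprinted genes, long non-coding RNAs, mitochondrial ribosomal proteins, myeloid leukaemia identity, polyamine and folate enzymes, receptor tyrosine kinases and solute carriers.

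The replicate numbers of KO1 and NC1 do not pair the samples: deviations of same-numbered libraries correlated at -0.04, -0.10 and -0.08 across genes. With a replicate block 5577 genes were called in place of 5885, 3420 higher and 2157 lower, and of the named genes FLT3 alone lost its call, with an adjusted p of 0.0555.

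Depth is unknown, so whether values under 1 FPKM differ from 0 was not tested, and a p that misses the threshold does not show that levels are equal.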
